A study of Homo sapiens with 12 samples.

Results

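The MYC, MAX and MXD network is a family of basic helix-loop-helix leucine zipper transcription factors. Its members were taken here as 10 named genes (MYC, MYCN, MYCL, MAX, MXD1, MXD3, MXD4, MXI1, MNT and MLX) out of the 56832 gene symbols counted in the RNA-seq files. They were measured by total RNA sequencing (12 libraries) in SW1736 cells, an established line of anaplastic thyroid carcinoma. The cells stably carried the vector pCDH-TRB, which expresses thyroid hormone receptor beta, or the empty vector pCDH-EV. Every culture was kept for 24 h without hormone, in medium with charcoal-stripped serum. It then received 10 nM triiodothyronine (T3, the receptor's ligand) or the vehicle NaOH for 24 h. The 4 groups of 3 libraries were EV with vehicle, EV with T3, TRB with vehicle and TRB with T3. The labels do not say whether the transduced cells were a clone or a pool, or whether replicates were separate cultures, so p-values measure the spread between these libraries only.

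MYC binds DNA as a dimer with MAX, mainly at the E-box hexamer CACGTG, and activates genes of ribosome assembly, nucleotide synthesis and nutrient uptake. MYCN and MYCL are its paralogs. The MXD proteins, MXI1 and MNT also pair with MAX at E-boxes and recruit the SIN3 histone deacetylase complex, which represses transcription. MLX is a MAX-like protein that pairs with the glucose-sensing MondoA and ChREBP as well as with MXD1, MXD4 and MNT. MYC is often highly expressed in anaplastic thyroid cancer.

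The E-box is the sequence through which the network's members act on their targets and on each other, so the promoters that hold it were looked up in RefSeq (GRCh38.p14, windows of 250 bases before to 50 after each start). A window was found for 9 of the 10 members, and 3 of these genes (MNT, MXD4 and MLX) held CACGTG, which reads the same on both strands. Over all 27305 genes with a window, 8.77% held it. The member without a window was MYC, so its promoter was searched neither for this hexamer nor for the direct repeat described below. The stretches around the match are shown for these 3 members, and for SLC7A5, the MYC-activated target with the strongest fall described further on, with the E-box in capitals and each written 5′ to 3′ on the gene's own strand. MNT lies on the minus strand (chr17:2401208-2401293), MXD4 on the minus strand (chr4:2262302-2262359), MLX on the plus strand (chr17:42567010-42567095) and SLC7A5 on the minus strand (chr16:87869592-87869677).
MNT: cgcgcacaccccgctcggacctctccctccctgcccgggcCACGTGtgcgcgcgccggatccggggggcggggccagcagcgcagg
MXD4: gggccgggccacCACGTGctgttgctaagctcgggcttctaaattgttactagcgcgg
MLX: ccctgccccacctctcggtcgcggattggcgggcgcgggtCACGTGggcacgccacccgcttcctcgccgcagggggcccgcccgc
SLC7A5: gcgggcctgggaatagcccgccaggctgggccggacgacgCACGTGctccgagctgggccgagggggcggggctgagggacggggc
The hexamer starts 193 bases before the annotated start of MNT, 238 before that of MXD4, 50 before that of MLX and 130 before that of SLC7A5. No member's window held the direct repeat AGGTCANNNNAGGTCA on either strand, the classical arrangement for thyroid hormone receptors, and 7 genes (0.0256%) held it over all windows. A match is a description of these letters and not evidence of binding.

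Libraries held 3819306 to 13086717 counts in genes, and 17833 to 22881 genes had a count. THRB, the gene on the vector, lay at 12.4 to 18.3 CPM (counts scaled to library size) in the 6 EV libraries, 79.8 to 80.4 CPM in the TRB libraries with vehicle and 190.3 to 321.9 CPM in the TRB libraries with T3. Reads of the endogenous gene and of the vector were not told apart. TRB with T3 replicate 2 stood apart from the rest. Its deviation from the other libraries followed the GC content of the genes (Spearman correlation -0.881 across 12130 genes), and neither TRB-with-T3 column of the authors' normalized table holds it. EV with T3 replicates 2 and 3 also followed GC content, in opposite directions (-0.835 and 0.808), and so did EV with vehicle replicate 2 (-0.678). The other 8 libraries were between -0.356 and 0.47. Results are therefore given from the 11 libraries without TRB with T3 replicate 2, and beside them from all 12. A gene was called changed at a Benjamini-Hochberg adjusted p under 0.05 in edgeR's quasi-likelihood test over all genes tested. Epithelial keratins KRT8, KRT18 and KRT19 were abundant, while the thyroid genes FOXE1 and TSHR had no count in any of the 12 libraries and PAX8 lay at 0.72 to 6.98 CPM. Of the listed markers of other cell types, 3 of 5 of leukocytes (PTPRC and CD3E among them), 3 of 3 of endothelium (PECAM1, CDH5 and VWF) and 3 of 4 of fibroblasts (DCN, LUM and PDGFRA) never exceeded 3 counts. The others had counts. Lysozyme (LYZ) was at 1127 to 1464 CPM in EV and 778.2 to 981.9 in TRB libraries, with 1589 in TRB with T3 replicate 2. With T3, its log2 fold change between TRB and EV cells was -0.64 (edgeR adjusted p = 0.00366), or -0.27 with all 12 libraries (edgeR adjusted p = 0.498). CD14 was at 0.34 to 0.42 CPM in TRB cells with vehicle and at 9.23 and 9.74 with T3 (0.18 in replicate 2). COL1A1 was there at 25.2 to 27.8 CPM with vehicle and at 13.7 and 14.9 with T3 (1.44 in replicate 2). CD14 rose by 4.6 (edgeR adjusted p = 4.52e-07) and COL1A1 fell by 0.86 on the log2 scale (edgeR adjusted p = 0.00705) with T3 in TRB cells, as MYC changed, and their part in the results was not tested.

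MYC was the member with the largest response. It fell with T3 in TRB cells, differed between TRB and EV cells once T3 was present, and responded differently to T3 in the 2 kinds of cell. In EV cells with vehicle its levels were 460.6, 342.2 and 366.6 CPM, and with T3 they were 325.7, 288.7 and 346.0 CPM. In TRB cells with vehicle they were 378.8, 423.0 and 382.1 CPM. With T3 they were 139.3 CPM in replicate 1, 149.8 in replicate 3 and 91.4 in replicate 2. All 3 TRB libraries with T3 lay below all 9 other libraries, whereas the EV groups overlapped.

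T3 lowered MYC in TRB cells from 395 ± 24.6 CPM (SD, n = 3) to 145 ± 7.41 (SD, n = 2). The log2 fold change was -1.40 (SE 0.14, edgeR adjusted p = 8.47e-06), which is 2.64-fold lower. With all 12 libraries it was -1.64 (edgeR adjusted p = 0.000422). Every alternative setting kept the call, with log2 fold changes from -1.64 to -1.32. In EV cells the change was -0.29 (SE 0.12, edgeR adjusted p = 0.149), which did not pass the threshold. It passed with an offset for GC content, at -0.44 (edgeR adjusted p = 0.00249), and was -0.44 without passing when that offset was used on all 12 libraries (edgeR adjusted p = 0.123). Before T3, MYC was at 390 ± 62.5 CPM (SD, n = 3) in EV and 395 ± 24.6 (SD, n = 3) in TRB cells, a log2 difference of 0.03 (SE 0.12, edgeR adjusted p = 0.9). With T3, TRB cells were lower than EV cells by a log2 fold change of -1.08 (SE 0.14, edgeR adjusted p = 0.000161), or -1.33 with all 12 libraries (edgeR adjusted p = 0.0033). The interaction, that is the T3 effect in TRB cells minus that in EV cells, was -1.12 (SE 0.18, edgeR adjusted p = 0.00172), and -1.35 with all 12 libraries (edgeR adjusted p = 0.0351). Both differences passed under every setting run. Fewer transcripts per cell through less synthesis or faster decay, and a different mix of cells, cannot be told apart in these bulk samples.

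**Figure D1:**
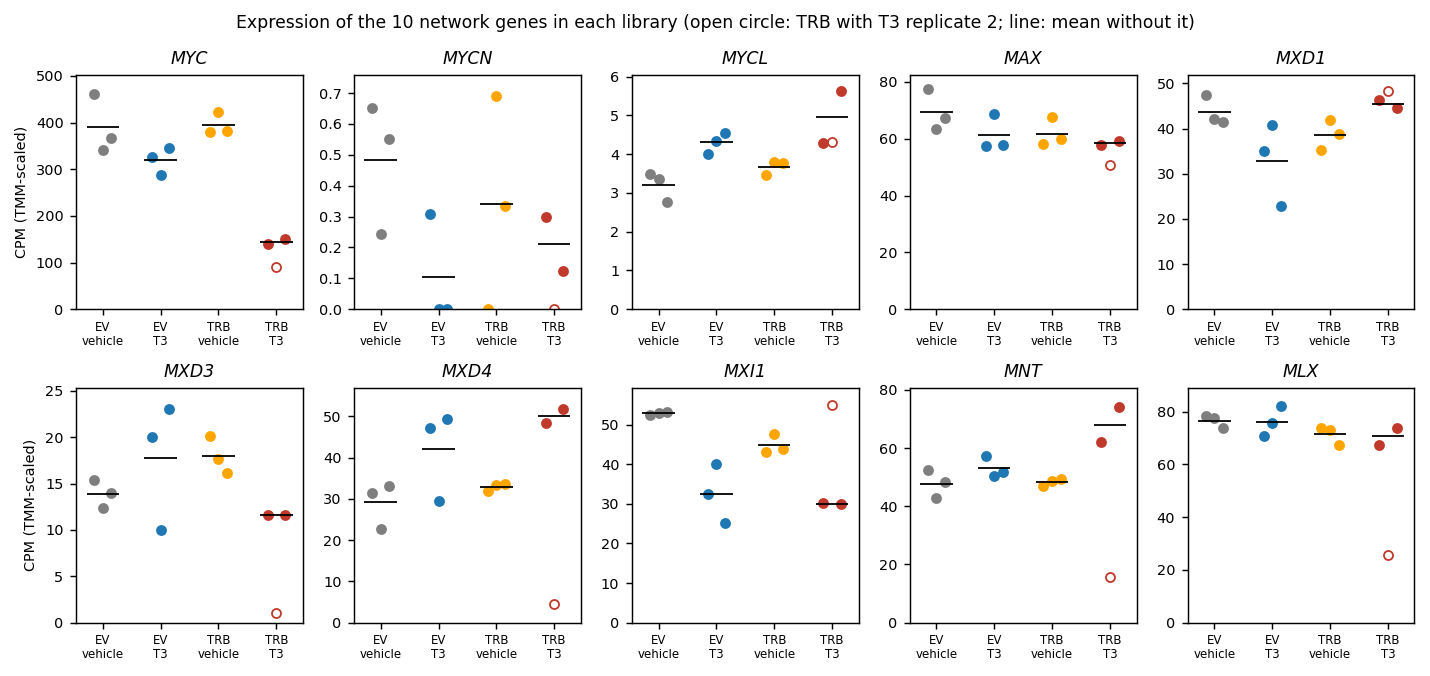
Level of each of the 10 genes in CPM (y axis, linear from 0, its own range in each panel) in the 12 libraries, by group. Points are libraries, lines are group means without TRB with T3 replicate 2, and that library is the open circle. MYC in the TRB libraries with T3 sits at 91.4 to 149.8 CPM, below the other 9 libraries.

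The paralogs of MYC were nearly silent. MYCN had 0 to 8 counts per library, with no count in 4 libraries, where a count of 0 allows up to 3, and it was not tested. MYCL, at 16 to 57 counts, lay at 2.76 to 3.48 CPM in EV cells with vehicle and 4.01 to 4.56 with T3. In TRB cells it lay at 3.46 to 3.79 CPM with vehicle and 4.28 to 5.62 with T3. The T3 libraries of each cell kind were above its vehicle libraries, but the log2 fold changes, 0.45 in TRB cells (SE 0.19, edgeR adjusted p = 0.0894) and 0.45 in EV cells (SE 0.20, edgeR adjusted p = 0.16), did not pass. Per kilobase of exon, MYC in EV cells with vehicle stood at 130 ± 20.8 CPM per kb (SD, n = 3) and MYCL at 0.631 ± 0.0758 (SD, n = 3).

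The shared partners showed no called change. MAX, the obligate partner of MYC, was at 69.4 ± 7.16 CPM (SD, n = 3) in EV cells with vehicle and 61.2 ± 6.47 (SD, n = 3) with T3. In TRB cells it was at 61.8 ± 5.03 CPM (SD, n = 3) with vehicle and 58.5 ± 0.811 (SD, n = 2) with T3. Its log2 fold change with T3 was -0.03 (SE 0.14) in TRB cells and -0.17 (SE 0.12) in EV cells. MLX was at 76.6 ± 2.48 CPM (SD, n = 3) and 76.1 ± 5.60 (SD, n = 3) in EV cells with vehicle and T3, and at 71.4 ± 3.46 (SD, n = 3) and 70.7 ± 4.49 (SD, n = 2) in TRB cells. Its log2 fold change with T3 in TRB cells was 0.03 (SE 0.11). TRB with T3 replicate 2 alone held MLX at 25.5 CPM, and with that library the change was -0.36 without passing (edgeR adjusted p = 0.444).

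The MAX-binding repressors moved in different directions with T3 in TRB cells. MNT, the broadly expressed antagonist of MYC, rose, as did MXD4, while MXI1 fell and MXD1 and MXD3 did not pass. MNT stood at 46.9, 48.7 and 49.4 CPM with vehicle and at 62.1 and 74.0 CPM with T3. The log2 fold change was 0.54 (SE 0.12, edgeR adjusted p = 0.00478). MXD4, a repressor linked to exit from proliferation, stood at 31.8, 33.4 and 33.5 CPM with vehicle and at 48.3 and 51.8 with T3. Its change was 0.65 (SE 0.20, edgeR adjusted p = 0.0214). MXI1 stood at 43.2, 47.8 and 43.9 CPM with vehicle and at 30.2 and 30.0 with T3. Its change was -0.53 (SE 0.16, edgeR adjusted p = 0.023). In each of these 3 genes the vehicle libraries did not overlap with the T3 libraries kept. The same held for MXD1 and MXD3, which were not called, so it does not set the called genes apart. How often this held over all genes was not counted, here or for the other members.

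The omitted library went against those 3 changes. TRB with T3 replicate 2 held MNT at 15.7 CPM and MXD4 at 4.50 CPM, below every other library, and MXI1 at 55.1 CPM, above every other library. With it, the changes were 0.07 for MNT (edgeR adjusted p = 0.919), 0.09 for MXD4 (edgeR adjusted p = 0.93) and -0.23 for MXI1 (edgeR adjusted p = 0.548). The exon GC content is 61.4% for MNT, 61.3% for MXD3, 57.6% for MXD4, 43.8% for MXI1 and 42.7% for MXD1. MXD3 was at 1.08 CPM in that library, and MXD1 at 48.2 CPM. The calls also rested on few libraries. MXD4 lost its call without any of the 5 remaining TRB libraries (0.60 to 0.70, edgeR adjusted p = 0.052 to 0.127). MXI1 lost it without TRB vehicle replicate 2 or 3 or either TRB library with T3, at -0.48, -0.55, -0.54 and -0.53. MNT lost it without TRB with T3 replicate 3, at 0.41 (edgeR adjusted p = 0.092).

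MXD3, which is expressed in proliferating cells, was at 20.1, 17.7 and 16.1 CPM in TRB cells with vehicle and at 11.6 in both T3 libraries kept. The groups did not overlap, but the log2 fold change of -0.58 (SE 0.26) did not pass (edgeR adjusted p = 0.103). It passed in 7 of 22 alternative settings. Among them were no count filter (-0.60), GC offsets on 11 libraries (-0.68) or 12 (-0.71) and a fit of the 2 TRB groups alone (-0.58). MXD1, induced in differentiating cells, was at 35.3, 42.0 and 38.8 CPM with vehicle and 46.3 and 44.5 with T3, a change of 0.28 (SE 0.19, edgeR adjusted p = 0.289).

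With T3 in TRB cells, 4 of the 9 tested members were called, 2 higher (MNT and MXD4) and 2 lower (MYC and MXI1), against 33.3% of all 14825 genes. With 12 libraries 1 of 9 was called (MYC), against 14.7% of 14431 genes. The share of members called was thus near that of all genes with 11 libraries, and no excess in the network can be read from it.

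In EV cells T3 changed 1 of 9 members, against 7.33% of all genes. MXI1 fell from 52.6, 53.1 and 53.2 CPM with vehicle to 32.6, 40.2 and 25.1 with T3. The log2 fold change was -0.67 (SE 0.15, edgeR adjusted p = 0.0197), and the groups did not overlap. The call was lost without EV vehicle replicate 2 (-0.68) or 3 (-0.68), without EV with T3 replicate 1 (-0.66), in the fit of the 2 EV groups alone (-0.68) and with all 12 libraries (-0.70, edgeR adjusted p = 0.636). With 12 libraries none of 9 members was called by edgeR (1 at an unadjusted p under 0.05), against 0.229% of all genes. MXI1 thus had a similar value in both kinds of cell, and its interaction was 0.14 (SE 0.22, edgeR adjusted p = 0.698).

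The other members did not pass in EV cells. MXD4 was at 31.5, 22.8 and 33.2 CPM with vehicle and 47.1, 29.6 and 49.4 with T3, a change of 0.52 (SE 0.19, edgeR adjusted p = 0.101). MXD3 was at 15.4, 12.3 and 14.0 CPM with vehicle and 20.1, 10.0 and 23.0 with T3. In both genes the low T3 value was replicate 2 and the high one replicate 3. These libraries had strong GC trends in opposite directions (-0.835 and 0.808). Replicate 3 also held the lowest T3 values of MXD1 (22.8 CPM) and MXI1 (25.1 CPM) in EV cells. Without replicate 2, but with replicate 3 kept, MXD4 (0.78), MXD3 (0.69), MXD1 (-0.51) and MXI1 (-0.81) were all called. Across the alternative settings MXD3 ran from 0.04 to 0.69 in EV cells.

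Between TRB and EV cells with vehicle, none of the 9 members was called, and none had an unadjusted p under 0.05 in edgeR with 11 or 12 libraries. Log2 differences ran from -0.22 for MXI1 to 0.40 for MXD3 (SE up to 0.23). Over all genes 0.0742% were called with 11 libraries and 0.0208% with 12. With T3 in both, 2 of 9 differed, against 19.7% of all genes. MYC was lower, as given above, and MNT was higher in TRB cells at 0.41 (SE 0.13, edgeR adjusted p = 0.0356). With 12 libraries only MYC was called, against 6.68% of all genes, and MNT was at -0.07 (edgeR adjusted p = 0.914). The MNT difference also lost its call under most other settings, including 9 of the 11 fits that left out a library, with values from 0.28 to 0.54 across those 11. The interaction was called for 1 of 9 members, MYC, against 15.2% of all genes, and with 12 libraries again for MYC alone, against 2.59%. Among the uncalled members the interaction was -0.90 for MXD3 (SE 0.35, edgeR adjusted p = 0.106) and 0.65 for MXD1 (SE 0.26, edgeR adjusted p = 0.112). MXD3 passed in 5 of 21 alternative settings, among them GC offsets (-0.72), no count filter (-0.90) and leaving out EV with T3 replicate 2 (-1.27). These contrasts share libraries and are not independent of each other.

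**Figure D2:**
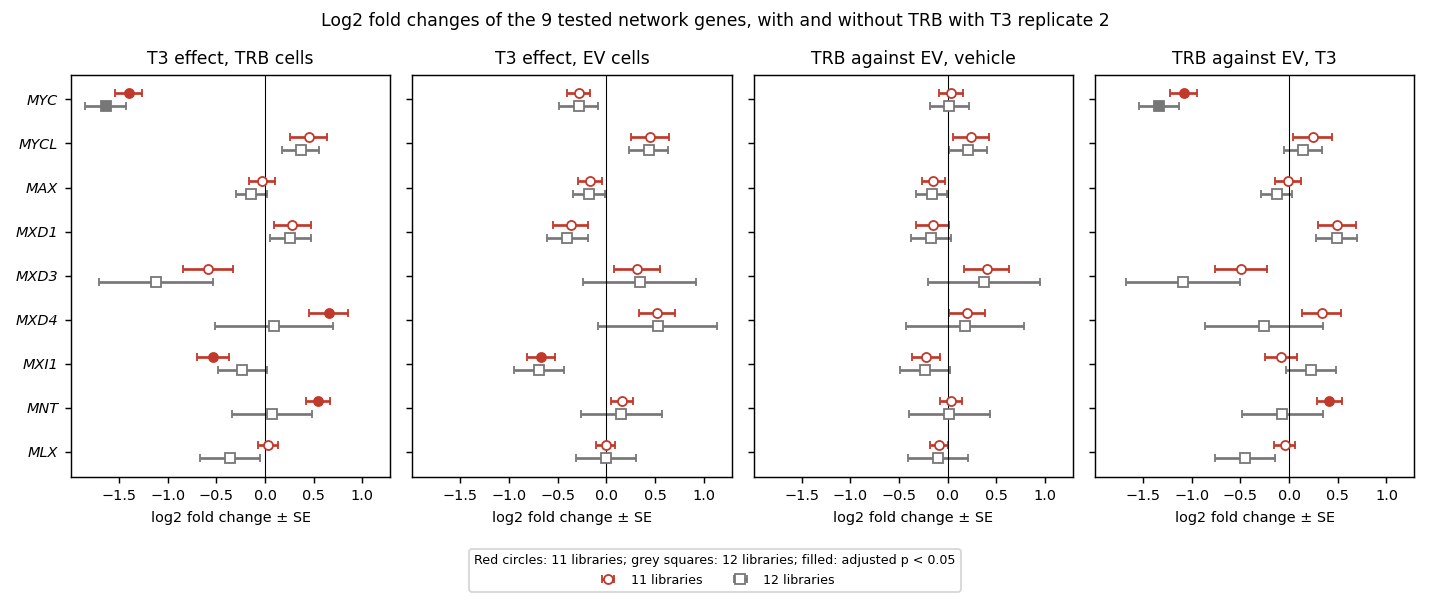
Log2 fold change ± SE (x axis) of the 9 tested members (y axis) in 4 contrasts, from 11 libraries (red circles) and 12 libraries (grey squares), with filled symbols where the edgeR adjusted p is under 0.05. MYC is filled in both fits for T3 in TRB cells (-1.40 and -1.64) and for TRB against EV with T3 (-1.08 and -1.33), while the calls of MNT, MXD4 and MXI1 are in the 11-library fit alone.

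Compared per kilobase of exon, the network's transcripts in EV cells with vehicle were led by MYC. MLX (18.0 ± 0.583 CPM per kb, SD, n = 3) and MAX (15.7 ± 1.62, SD, n = 3) followed, and their ranges overlapped. Then came MXI1 at 11.5, MXD1 at 6.87, MNT at 5.48, MXD4 at 4.13 and MXD3 at 2.7, whose ranges did not overlap with their neighbours. The lengths are those of merged exons in GENCODE 29, and the isoforms used in these cells were not measured.

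The ratio of MYC to MAX per kb was 8.80, 7.97 and 8.03 in EV cells with vehicle and 8.40, 6.20 and 8.85 with T3. In TRB cells it was 9.62, 9.24 and 9.44 with vehicle and 3.55, 2.65 and 3.74 with T3, where 2.65 is replicate 2. The 3 TRB libraries with T3 were below all others. The summed level of MXD1, MXD3, MXD4, MXI1 and MNT was 29.5 ± 1.06 CPM per kb (SD, n = 3) in TRB cells with vehicle and 30.8 ± 1.08 (SD, n = 2) with T3, so the rises and falls among the 5 repressors left their sum within the spread of these libraries. In TRB with T3 replicate 2 it was 22.2. MYC over that sum went from 4.45 ± 0.119 (SD, n = 3) to 1.56 ± 0.0247 (SD, n = 2) in TRB cells. In EV cells it was 4.22 ± 0.458 with vehicle and 3.86 ± 0.441 with T3 (SD, n = 3 each).

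**Figure D3:**
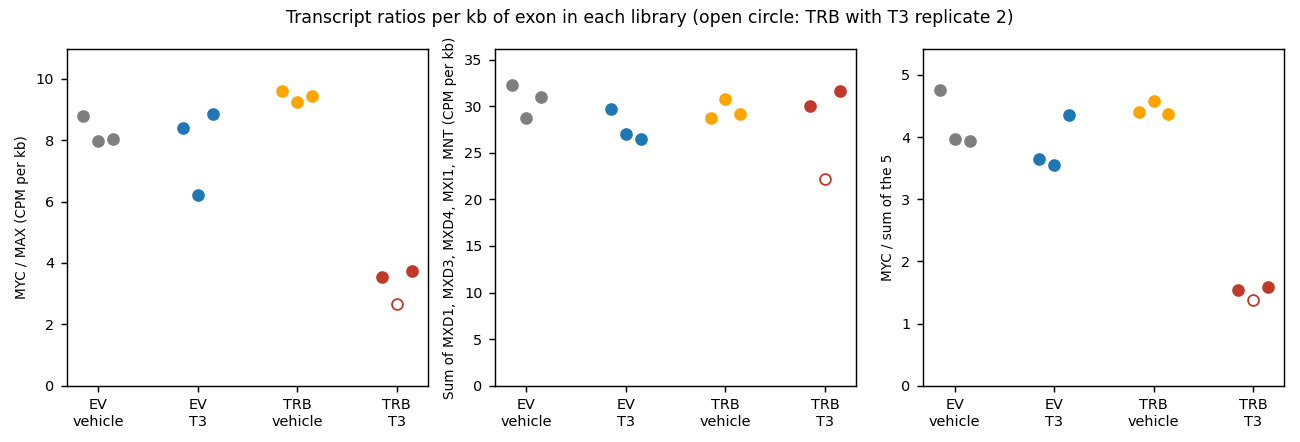
MYC to MAX ratio (left), summed level of the 5 repressor genes in CPM per kb of exon (middle) and MYC to that sum (right), each y axis linear from 0, in every library by group, with TRB with T3 replicate 2 as an open circle. Both MYC ratios are lowest in the 3 TRB libraries with T3, at 2.65 to 3.74 and 1.37 to 1.58, while the summed repressor level of the 11 other libraries lies between 26.4 and 32.3 in every group.

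The 3 further network genes, MGA, MLXIP (MondoA) and MLXIPL (ChREBP), did not pass in any contrast, and their changes with T3 in TRB cells were -0.09, 0.02 and 0.08. Among 16 genes of the SIN3 corepressor complex and its associates, 3 rose and 2 fell with T3 in TRB cells (edgeR with 11 libraries), with a median log2 fold change of 0.08 against -0.01 for all genes. BRMS1L (1.20), ARID4B (0.64) and SAP130 (0.46) rose, while SAP30 (-0.72) and RBBP7 (-0.35) fell. The scaffolds SIN3A and SIN3B were at 0.00 and 0.35 without passing. With 12 libraries 1 of 16 was called (BRMS1L). Over all genes 18.1% were called higher and 15.2% lower with 11 libraries, and 8.54% higher and 6.2% lower with 12.

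Among 16 coactivators of MYC, 4 rose and 3 fell with T3 in TRB cells, with a median of 0.10. The acetyltransferases CREBBP (0.53) and EP300 (0.48) and the scaffold TRRAP (0.37) rose, as did PAF1. KAT2A, a further acetyltransferase, fell (-0.53), as did WDR5 (-0.30) and ACTL6A (-0.29). With 12 libraries none was called by edgeR (0 of 16), and the WDR5 change of -0.54 was nearest (edgeR adjusted p = 0.0866). Among 16 genes of MYC protein stability, GSK3B, the kinase that marks MYC for degradation, rose by 0.81 (edgeR adjusted p = 0.000719, and 1.05 with 12 libraries). USP36, a nucleolar deubiquitinase of MYC, fell by 0.44, and so did AURKA, a kinase that stabilises MYC-family proteins, but neither was called with 12 libraries (edgeR adjusted p = 0.0978 and 0.0552). With 11 libraries 1 of the 16 was thus higher and 2 were lower, shares below the 18.1% and 15.2% of all genes. The ubiquitin ligases FBXW7 (0.11), SKP2 (-0.08) and HUWE1 (0.13) did not pass. The protein itself was not measured.

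Long noncoding RNAs of the MYC locus fell together with MYC. PVT1 was at 75.5, 70.2 and 71.7 CPM in TRB cells with vehicle and at 40.4 and 32.0 with T3, with 16.7 in replicate 2. The change was -0.95 (edgeR adjusted p = 6.33e-05). PCAT1 went from 9.25, 6.55 and 7.30 CPM to 3.30 and 2.37, a change of -1.34 (edgeR adjusted p = 0.000509), with 4.86 in replicate 2. Both were called with 12 libraries too (-1.28 and -1.15), and neither passed with T3 in EV cells (-0.13 and 0.04). Of the 8 noncoding RNAs listed beside MYC-family genes, 3 were in the count files by these symbols and 2 were tested.

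Most genes listed as activated by MYC fell with T3 in TRB cells. Of 61 listed genes 60 were tested (CCND2 was not), and 40 fell and 2 rose, with a median log2 fold change of -0.58 against -0.01 for all genes. That is 66.7% lower, against 15.2% of all genes. With 12 libraries 15 fell and 1 rose (median -0.44), against 6.2% of all genes lower. With GC offsets 50 fell with 11 libraries and 39 with 12, but the share of all genes lower in those fits was not counted. The list was drawn up from general knowledge with earlier results of these data known, so its count is a description and no test of the list was made.

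Within that list, ribosome assembly made up the greatest part. In edgeR with 11 libraries 21 of its 29 genes fell and none rose (median -0.62), against 15.2% of all genes lower. With 12 libraries 9 fell and none rose (median -0.69), against 6.2% of all genes lower. NPM3, a nucleolar histone chaperone, fell by 1.11, from 38.8, 33.8 and 40.7 CPM to 16.7 and 17.1 CPM. FBL, the rRNA methyltransferase fibrillarin, fell from 306.1, 314.5 and 314.2 CPM to 175.2 and 176.6, with 142.5 in replicate 2, a change of -0.78 (edgeR adjusted p = 0.000254, and 0.00284 with 12 libraries). NOP16 fell by 1.03 and POLR1B, a subunit of RNA polymerase I, by 0.82. NOP2 (-0.08), UTP20 (-0.11) and TCOF1 (-0.16) did not pass. Beyond the 3 largest changes, genes in this paragraph and the next 2 were picked as examples after their values were seen. The functional classes of the list, the cell cycle genes included, were also formed after the values were seen. Counts by class are therefore descriptions only.

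In nucleotide and one-carbon synthesis 7 of 9 genes fell with 11 libraries, against 15.2% of all genes. With 12 libraries 1 of 9 (IMPDH2) fell, against 6.2%. IMPDH2, the rate-limiting enzyme of guanine nucleotide synthesis, went from 193.6, 166.9 and 174.0 CPM to 70.3 and 71.0, with 30.6 in replicate 2. Its change was -1.29 (edgeR adjusted p = 3.09e-06, and 0.0028 with 12 libraries). CAD fell by 0.78 and the mitochondrial one-carbon enzymes SHMT2 and MTHFD2 by 0.66 and 0.71. With 12 libraries these 3 did not pass (edgeR adjusted p = 0.144, 0.137 and 0.441), and MTHFD2 in replicate 2 was at 491.5 CPM, above every vehicle library. ODC1, the rate-limiting enzyme of polyamine synthesis, fell from 443.6, 418.2 and 409.4 CPM to 193.9 and 203.1, with 192.5 in replicate 2, a change of -1.05 (edgeR adjusted p = 2.09e-06).

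All 4 transport genes fell with 11 libraries, and 2 (SLC7A5 and SLC3A2) with 12, against 15.2% and 6.2% of all genes. SLC7A5 and SLC3A2, which together form the large neutral amino acid transporter LAT1, had among the strongest changes of the list. SLC7A5 went from 695.0, 723.9 and 690.6 CPM to 172.8 and 205.9, with 18.4 in replicate 2, a change of -1.85 (edgeR adjusted p = 4.73e-06). SLC3A2 went from 347.1, 315.6 and 352.1 CPM to 114.1 and 118.8, a change of -1.49 (edgeR adjusted p = 8.87e-06). TFRC, the transferrin receptor, fell by 0.87 and the lactate carrier SLC16A1 by 0.58. With 12 libraries these were -0.61 and -0.07 without passing (edgeR adjusted p = 0.0791 and 0.884), and SLC16A1 in replicate 2 was at 262.5 CPM, above every vehicle library. TERT, the telomerase subunit, fell by 1.7 at low level, from 7.93, 5.51 and 7.39 CPM to 2.18 and 1.87.

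Some listed targets did not follow. LDHA, lactate dehydrogenase A, rose by 0.49 (edgeR adjusted p = 0.00316), from 798.6, 777.0 and 779.2 CPM to 1047 and 1079. With 12 libraries it kept its call, at 0.71 (edgeR adjusted p = 0.0344). The translation factor EIF4G1 rose by 0.43 (edgeR adjusted p = 0.00583). In replicate 2, however, EIF4G1 was at 550.1 CPM, below every vehicle library. Its change with 12 libraries was 0.06 without passing (edgeR adjusted p = 0.894). Of the 4 tested cell cycle genes only CDK4 fell (-0.93, edgeR adjusted p = 0.00112), against 15.2% of all genes lower. E2F1 (0.20), E2F2 (0.04) and CDC25A (0.00) did not pass. NPM1, HSPD1, LDHA and EIF4A1 have near-identical processed pseudogenes, so their counts depend on how multiply mapped reads were treated.

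In EV cells 3 of the 60 activated targets fell with T3 (MTHFD2 -1.05, SLC16A1 -0.50 and ODC1 -0.33) and none rose, a median of -0.09, against 3.57% of all genes lower. That count moved with the processing: it was 0 with 12 libraries, 14 with GC offsets and 18 without EV with T3 replicate 2. For GC offsets and for that leave-out fit the share of all genes was not counted. With T3 in both, 34 were lower in TRB than in EV cells and 1 was higher, against 7.9% of all genes lower. With 12 libraries 8 were lower, against 368 of all 14431 genes. The interaction was called below 0 for 21 and above 0 for 1, against 6.68% of all genes below 0. With 12 libraries it was called below 0 for 3, against 119 of all 14431 genes. Leaving out TRB with T3 replicate 3 brought the 34 to 14 and the 21 to 9, and leaving out replicate 1 brought them to 18 and 13. With vehicle alone no activated target differed between TRB and EV cells in edgeR with 11 libraries or with 12.

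**Figure D4:**
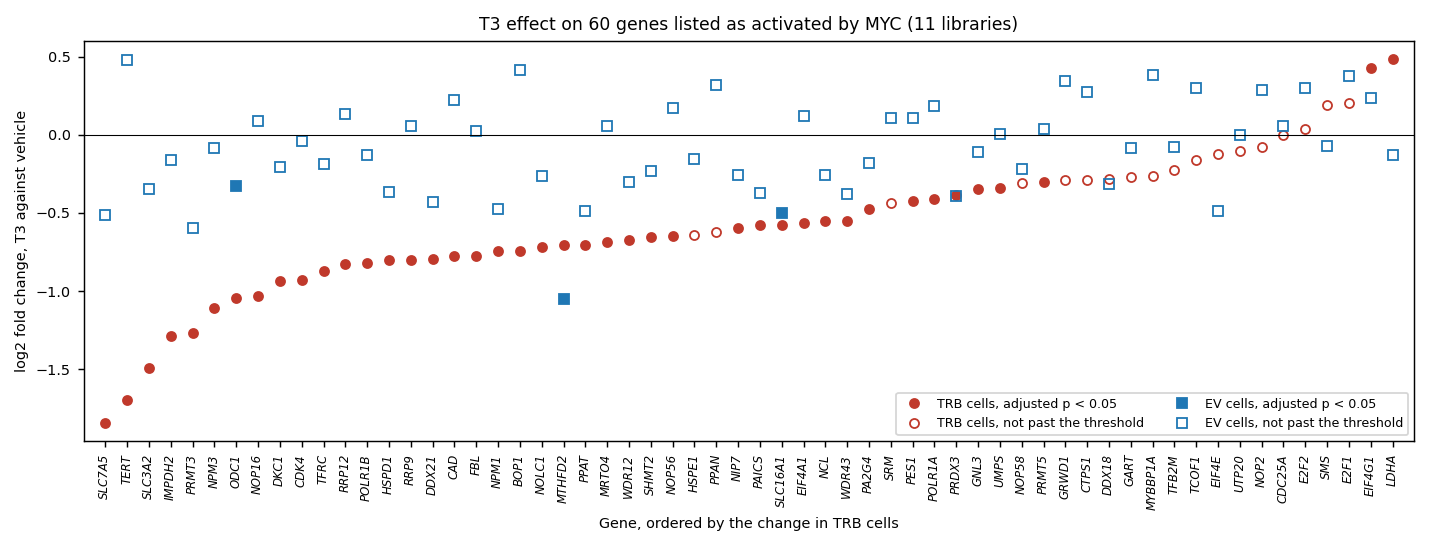
Log2 fold change with T3 (y axis) of the 60 tested genes listed as activated by MYC, ordered by their change in TRB cells (red circles) with the change in EV cells (blue squares), 11 libraries, filled where the edgeR adjusted p is under 0.05. In TRB cells 40 fall and 2 rise, and in EV cells 3 fall.

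The E-box was held by 24 of the 51 activated targets with a promoter window (47.1%), against 8.77% of all genes. It did not separate the targets that fell from those that did not: it was present in 16 of 34 that fell with T3 in TRB cells and in 8 of 17 that did not. SLC7A5, printed above, is one that fell. These are counts of letters in a window of 300 bases and leave out more distant sites.

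Genes listed as repressed by MYC moved in both directions. Of 14 listed genes 11 were tested, and with T3 in TRB cells 6 rose and 3 fell (median 0.70), against 18.1% higher and 15.2% lower over all genes. With 12 libraries 3 rose and 1 fell, against 8.54% higher and 6.2% lower over all genes. NDRG1, a stress-induced growth suppressor, went from 28.4, 31.3 and 26.7 CPM to 83.9 and 105.1, a change of 1.76 (edgeR adjusted p = 4.73e-07). CDKN1A, the cyclin-dependent kinase inhibitor p21, went from 16.0, 17.2 and 15.1 CPM to 42.3 and 49.3, a change of 1.56 (edgeR adjusted p = 2.22e-05). It was at 7.56 CPM in replicate 2, below the vehicle libraries, and the change with 12 libraries was 1.05 without passing (edgeR adjusted p = 0.187). GADD45B, a stress-response gene, rose by 1.59. It was at 1.44 CPM in replicate 2, below the TRB vehicle libraries, and did not pass with 12 libraries (1.09, edgeR adjusted p = 0.211). TGFBI (-1.66), CEBPA (-0.93) and the kinase inhibitor CDKN2B (-0.88) fell. With 12 libraries TGFBI kept its call (-1.91, edgeR adjusted p = 0.000594). CEBPA and CDKN2B did not, at -1.38 and -0.79 (edgeR adjusted p = 0.0721 and 0.0555). In EV cells 2 of the 11 rose (THBS1 0.82 and CDKN1A 0.69) and 2 fell (CDKN2B -1.06 and TGFBI -0.61), against 3.76% higher and 3.57% lower over all genes. With 12 libraries 1 rose and none fell in edgeR, against 30 higher and 3 lower among all 14431 genes.

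The targets of MLX with its Mondo partners were few. ARRDC4 (-0.77), KLF10 (-0.66) and the glucose-induced TXNIP (-0.33) fell with T3 in TRB cells, while PKLR was not tested. In EV cells ARRDC4 (-0.77) and TXNIP (-0.43) fell and KLF10 was at -0.41 without passing. None of the 3 was called with 12 libraries in edgeR, in TRB cells (-0.15, -0.39 and -0.21) or in EV cells, and MLX itself showed no called change.

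The genes whose pattern over the 11 libraries was most like that of MYC were CAPN5, a calpain protease, TOP1MT, the mitochondrial topoisomerase, and FGFRL1, a fibroblast growth factor receptor without a kinase domain. Their root mean square differences from MYC in centred log2 CPM were 0.084, 0.118 and 0.133, the smallest of 10399 genes compared. With T3 in TRB cells they fell by 1.31, 1.20 and 1.59 on the log2 scale. They were chosen for their likeness to MYC in these same libraries, so this fall follows from the choice and is no separate result.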

How the data were processed

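The authors deposited raw counts of reads per gene symbol for each of 12 libraries. A whole-series file of scaled values, whose method is not stated and whose unit is called a score here, was deposited too. Its 2 TRB columns with T3 were constant multiples of replicates 1 and 3 (tolerance 0.6 units plus 0.1%). It served only this check, and its 13 other columns were not used. Per the submitters' processing notes the tools were CASAVA 1.7, STAR 2.7, HTSeq 0.10 and DESeq2, with build hg38. The annotation and the strand setting are not given in the sources used here, so reads of overlapping antisense genes cannot be told apart. The closing lines of each file were left out. They held multiply aligned reads (19.03% to 91.95% of a file's total), reads in no feature (2.14% to 24.37%) and reads in several genes (0.26% to 1.81%). The share of multiply aligned reads was lowest in TRB with T3 replicate 2 and highest in EV with T3 replicate 3. The latter, kept in the main fit, also had the fewest counts in genes (3819306).

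Tests used edgeR 4.0.16 (R 4.3.3): filterByExpr (minimum count 10, minimum total 15), TMM scaling, a coefficient for each group and the quasi-likelihood F test, two-sided, adjusted by Benjamini-Hochberg at 0.05 over all genes tested. The main fit used 11 libraries (14825 genes, biological coefficient of variation 0.131) and the second all 12 (14431 genes, 0.329). Standard errors were derived from the fold change and F. The test was checked on simulated data. CPM values used the TMM factors of the 12 libraries. GC content and lengths came from GENCODE 29, and motifs from RefSeq promoters. Alternatives included limma 3.58.1 (voom), DESeq2 1.42.0, other scalings and filters, a replicate block, GC offsets (spline with 5 degrees of freedom) and leaving out each library. Text names all members, and per list the up to 3 genes called with T3 in TRB cells that changed most in each direction, every member of lists of at most 5 genes, and the 3 genes most like MYC (mean log2 CPM of at least 3, pseudocount of 1 CPM). Other genes are examples. The members and lists were chosen with earlier results of these data known.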

Additional observations from a re-analysis of the deposited data

Results flagged for a closer look

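For 30 genes named in the text the T3 effect in TRB cells differed from that in EV cells by the interaction test of edgeR with 11 libraries (adjusted p under 0.05, as for 15.2% of all genes). Most of these genes were named for their change with T3 in TRB cells or their likeness to MYC in these same libraries. Their number is therefore a description and cannot be weighed against that share. With all 12 libraries 4 of the 30 were called (MYC, NOP16, ODC1 and THRB) and 26 were not. Values are the log2 change in TRB cells minus that in EV cells, with 11 libraries. Among the members only MYC was in this set, at -1.12 (edgeR adjusted p = 0.00172, and 0.0351 with 12 libraries), with -1.40 in TRB and -0.29 in EV cells. Its locus neighbours were PVT1 (-0.81) and PCAT1 (-1.38). Among activated targets the transporters SLC7A5, SLC3A2 and TFRC were at -1.33, -1.15 and -0.68. The nucleolar genes NOP16, NPM3, FBL and POLR1B were at -1.12, -1.02, -0.80 and -0.69. The enzymes IMPDH2, CAD and ODC1 were at -1.13, -1.0 and -0.72, and TERT, CDK4 and EIF4A1 at -2.18, -0.89 and -0.69. LDHA, which rose in TRB cells, was at 0.61. Among repressed targets NDRG1 was at 1.96 and CDKN1A at 0.87, while TGFBI was at -1.05 and CEBPA at -1.33. Among cofactors GSK3B was at 0.96, KAT2A at -0.70 and USP36 at -0.53. The genes picked for their likeness to MYC, FGFRL1, CAPN5 and TOP1MT, were at -1.51, -1.07 and -0.84. The markers CD14 and COL1A1 were at 3.27 and -1.19, and THRB, the gene on the vector, at 1.95. The TRB group with T3 rests on 2 libraries in this test. With 3 libraries a group was too small for a search for single outlying values.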

How the results depend on the processing

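The call of MYC with T3 in TRB cells, between TRB and EV cells with T3 and in the interaction held under every alternative, with log2 values of -1.64 to -1.32, -1.33 to -0.96 and -1.35 to -0.88, and no member was called with vehicle under any. With all 12 libraries, members called were 1 with T3 in TRB cells, 0 with T3 in EV cells and 1 between TRB and EV cells with T3. Activated targets lower were then 15, 0, 8 and 3 (T3 in TRB cells, T3 in EV cells, TRB against EV with T3, interaction) and repressed targets higher 3. Replicate numbers were not used as pairs in the main fit. Deviations of libraries with the same number correlated at -0.222 to 0.508 (6 of 15 pairs above 0.1). Those with different numbers correlated at -0.486 to 0.422 (7 of 30 above 0.1). TRB with T3 replicate 2 was not among these pairs, and whether libraries of one number share an effect was not tested. With the replicate block, members called were 5 with T3 in TRB cells, 2 with T3 in EV cells and 3 in the interaction, and 13 activated targets fell in EV cells. With no count filter 2 members were called in EV cells and 2 in the interaction. With GC offsets these were 2 and 3, and 2 in the interaction with all 12 libraries. With GC offsets 14 activated targets fell in EV cells and 48 were lower in the interaction. Fitting the compared groups alone gave 0 members in EV cells and 1 between TRB and EV cells with T3, as upper-quartile factors did, with 1 activated target lower in EV cells and 15 between TRB and EV cells with T3. Activated targets lower in EV cells were 14 with DESeq2, 6 with limma-voom, 6 with RLE factors, 12 with no count filter and 7 with at least 10 counts in every library. Apart from the main fit and that of all 12 libraries, the share of all genes called was not counted for any setting.

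Leaving out each of the 11 libraries gave 1 to 5 members with T3 in TRB cells, 0 to 4 in EV cells, 1 to 3 between TRB and EV cells with T3 and 1 to 3 in the interaction. Activated targets lower ranged over 28 to 47, 1 to 18, 14 to 44 and 9 to 34 in the same order, and repressed targets higher over 5 to 6. Changes near 0 turned sign without passing. With T3 in TRB cells, MAX was at 0.00 with the replicate block, 0.02 with GC offsets on 12 libraries and -0.08 to 0.04 without single libraries, and MXD1 at 0.00 with GC offsets on 12. MLX was there at -0.36 with 12 libraries, -0.02 with upper-quartile factors, -0.08 and -0.25 with GC offsets on 11 and 12, and -0.04 to 0.10 without single libraries. In EV cells MLX was at 0.00 with RLE factors, 0.04 with upper-quartile factors, 0.01 with at least 10 counts in every library and -0.05 to 0.04 without single libraries, and MNT at -0.04 and -0.06 with GC offsets on 11 and 12. With all 12 libraries MNT was at -0.07 between TRB and EV cells with T3 and at -0.08 in the interaction. The causes were not tested. Where a fit left 1 library in TRB with T3, its spread was taken from the other groups. MYCN, with up to 8 counts, was below what this depth can compare.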
